A study of Mus musculus with 36 samples.

Results

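Circular RNAs were compared between brains of APP/PS1 mice and of wild-type mice at 9 months of age. The comparison rests on all 15690 circRNAs listed in the deposited circRNA count table and on 6 of its 12 libraries. These are 3 libraries of APP/PS1 mice and 3 of wild-type mice, and the other 6 libraries, of the same genotypes at 6 months, are given beside them. APP/PS1 mice carry the transgenes APP695swe and PS1-dE9, which in this line are driven by the mouse prion promoter. Wild-type mice carry neither transgene, and the strain label of both genotypes is C57BL/6. The labels give neither the sex of the mice nor the number of mice behind each library. They do not say whether the 3 libraries of 1 genotype and age are separate mice. Each p-value thus reflects the spread among libraries, and that spread may be technical. For the main tests of single circRNAs it is taken from all 12 libraries of both ages.

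A circRNA forms when a downstream splice donor is joined to an upstream splice acceptor of the same transcript. The product is a closed loop with no cap and no poly(A) tail, which resists exonucleases and is long-lived. Brain is known as a tissue rich in circRNAs, many of them made from exons of neuronal genes and found near synapses, and circRNA levels are known to accumulate in ageing neural tissue of several animals. Reads that cross the back-spliced junction are what commonly identifies a circRNA in sequencing data.

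Of the 15690 circRNAs, 1197 carry catalogue IDs that start with mmu_circ, the form used by the circBase catalogue, and 14493 carry novel_circ IDs. The table pairs no ID with a host gene, a position or a sequence, so every circRNA is given by its ID, without a gene name or a role. Of all listed circRNAs, 9178 were above 0 in each of the 6 libraries of 9 months and 60 were at 0 in all 6. The table holds 25286 zeros and no value of 1, its lowest value above 0 being 2 reads. A circRNA listed at 0 may therefore lie under a minimum set by the authors, and no fold is given against a group that is at 0 throughout.

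The APP/PS1 libraries of 9 months held 373626, 422383 and 404079 circRNA reads, and the wild-type libraries 654147, 247998 and 361689. Both the deepest and the shallowest of the 12 circRNA libraries were wild type at 9 months, while the APP/PS1 libraries lay close together. Detected circRNAs numbered 13562 to 13998 per APP/PS1 library and 12163 to 14447 per wild-type library. Scaled down to 247998 reads, the size of the shallowest library, the numbers were 13527 ± 161 in APP/PS1 and 13064 ± 797 in wild type (SD, n = 3 each). These ranges overlapped (exact two-sided permutation p = 0.7, where 3 against 3 libraries allow no p below 0.1). That count takes circRNAs scaled down to 1 read, a value the table does not hold, in every library but the shallowest, wild type 2, which was not scaled. Counted from 2 reads, a setting added after the values had been seen, the numbers were 12294, 12374 and 12377 in APP/PS1 and 11957, 12163 and 12362 in wild type. Wild type 2 then lay between the other wild-type libraries, and the genotypes still overlapped (exact two-sided permutation p = 0.2).

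The composition of the libraries was alike in its broad features. Catalogue IDs took 44.3% ± 0.232 of the reads in APP/PS1 and 44.2% ± 0.250 in wild type (SD, n = 3 each, exact permutation p = 0.7). The 10 most abundant circRNAs of each library took 6.58% ± 0.764 of its reads in APP/PS1 and 6.94% ± 1.12 in wild type (SD, n = 3 each, exact permutation p = 0.8). Across the tested circRNAs the log2 CPM of library pairs had a Pearson r of 0.742 to 0.747 within APP/PS1, 0.677 to 0.723 within wild type and 0.676 to 0.736 between the genotypes. These correlations are descriptions across circRNAs that share libraries and depth.

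The tissue could be checked only in the long RNA libraries that carry the same sample names, because the circRNA table names no genes. The extraction protocol in the labels speaks of retinas, while the tissue label reads brain. The FPKM (fragments per kilobase of transcript and 1000000 mapped fragments) of 8 photoreceptor genes summed to 0.935 to 1.23 in APP/PS1 and 1.14 to 1.48 in wild type, with Pdc at 0 throughout. Those of 6 forebrain neuron genes summed to 1546 to 1642 in APP/PS1 and 1572 to 1656 in wild type. Of 6 marker lists of other cells and tissues, 4 did not overlap between the genotypes. The share of all genes without overlap is not given here, and 3 against 3 libraries allow no exact p below 0.1. The sums of 4 oligodendrocyte genes overlapped at 612 to 657 FPKM in APP/PS1 and 516 to 657 in wild type, and those of 5 striatal genes at 198.5 to 230.5 in APP/PS1 and 198 to 204 in wild type. The sums of 6 choroid plexus genes lay at 74.3 to 292 FPKM in APP/PS1 and 304 to 346 in wild type, and those of 3 pituitary genes at 19.8 to 237 in APP/PS1 and 3.85 to 18.95 in wild type. Sums of 6 microglial genes lay at 78.0 to 94.8 FPKM in APP/PS1 and 55.3 to 59.95 in wild type. Sums of 3 astrocyte genes lay at 243 to 280 in APP/PS1 and 181 to 203 in wild type, and none of these lists had a member at 0 throughout. Their part in the circRNA results was not tested, and in bulk tissue fewer cells of a type cannot be told apart from less RNA per cell.

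The genotypes were tested in 1 edgeR quasi-likelihood model of all 12 circRNA libraries with 4 group means, and p-values were adjusted over the 14872 circRNAs that passed a filter on low counts. In APP/PS1 brains of 9 months, 1 circRNA was called at an adjusted p under 0.05, or 0.00672% of those tested. It was novel_circ_0015795, which rose, and 0 circRNAs fell. At an unadjusted p under 0.05 there were 661, or 4.44% of those tested, of which 352 were higher and 309 lower in APP/PS1. The median log2 change of all tested circRNAs was 0.01, and the middle 50% lay between −0.36 and 0.39. DESeq2 called 4 circRNAs (486 at an unadjusted p under 0.05), namely novel_circ_0015795, mmu_circ_0000453 and novel_circ_0010838 as higher and mmu_circ_0000598 as lower. With the 9-month libraries alone edgeR called 2, novel_circ_0015795 and mmu_circ_0000453. The count was 2 without APP/PS1 1, 5 without APP/PS1 2, 2 without wild type 2 and 3 without wild type 3 of 9 months, and 4 without APP/PS1 2 of 6 months. Without any of the other 7 libraries it was 1.

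The size of the change that these libraries can resolve depended on abundance. CircRNAs with a mean under 5 reads per library made up 5184 of the 14872 tested, and their median standard error (SE) of the log2 change was 1.20. It was 0.65 for the 3674 circRNAs of 5 to 10 reads, 0.41 for the 3608 of 10 to 30, 0.26 for the 1671 of 30 to 100 and 0.18 for the 735 of 100 reads and over. The plot of change against abundance shows the same narrowing. Fitted changes over 2-fold occurred in 35.2% of the circRNAs under 5 reads and in 0.680% of those with 100 reads and over. At an SE of 0.65 a 2-fold difference lies within 2 SE of 0. For most circRNAs under 10 reads it would thus not reach even an unadjusted p of 0.05. The adjusted threshold asks for more and also limits circRNAs with more reads. For example, mmu_circ_0000598 was not called at a log2 change of −1.20 with an SE of 0.24 (edgeR adjusted p = 0.268). Catalogue IDs had a median of 53.5 reads per library and novel_circ IDs 6.83, among those tested. In the catalogue class 62 of 1196 had an unadjusted p under 0.05 (5.18%, median log2 change 0.03), and in the novel_circ class 599 of 13676 (4.38%, median 0.00).

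**Figure D1:**
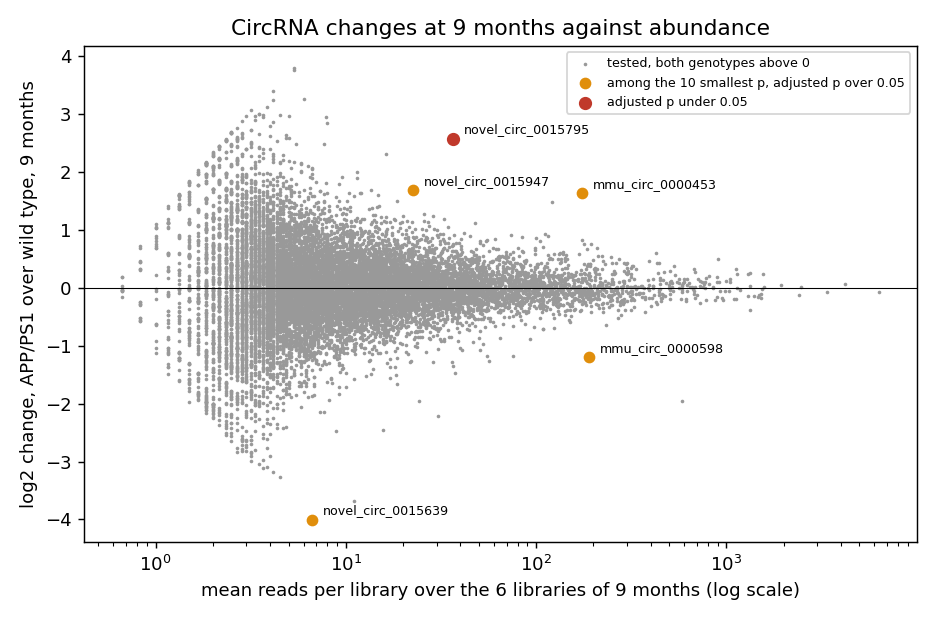
Log2 change of APP/PS1 over wild type at 9 months (edgeR) against the mean reads per library, on a log scale, for each tested circRNA with reads in both genotypes. The red point is novel_circ_0015795, the circRNA called at an adjusted p under 0.05, and the orange points are those of the 10 smallest p with reads in both genotypes. The cloud narrows from left to right, and the median SE is 1.20 under 5 reads and 0.18 from 100 reads.

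The called circRNA, novel_circ_0015795, was several times more abundant in APP/PS1 brains of 9 months. It had 41, 73 and 72 reads in the APP/PS1 libraries and 19, 4 and 10 in the wild-type libraries. As CPM (reads per 1000000 of the library total after TMM scaling) these were 111, 174 and 179.8 in APP/PS1 and 30.9, 15.4 and 27.4 in wild type. Every APP/PS1 library lay above every wild-type library, with a wide gap between the lowest of the one and the highest of the other. The means were 155 ± 38.1 CPM in APP/PS1 and 24.6 ± 8.13 in wild type (SD, n = 3 each), a 6.31-fold difference (log2 2.57, SE 0.31, edgeR adjusted p = 0.00112). The call was kept in each of 21 other settings, among them all 12 that left out a library, with adjusted p up to 0.0366.

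At 6 months the same circRNA differed in the opposite direction. Its CPM were 25.03, 22.6 and 22.9 in APP/PS1 and 86.6, 73.3 and 78.5 in wild type of that age, again without overlap. The 6-month change was not called (log2 −1.75, SE 0.32, edgeR adjusted p = 0.0542). The genotype effects at the ages differed from each other by 4.32 on the log2 scale (SE 0.45, edgeR adjusted p = 0.000121). Wild type of 9 months and APP/PS1 of 6 months thus had similar levels, between 15.4 and 30.9 CPM, and the other groups had higher ones.

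**Figure D2:**
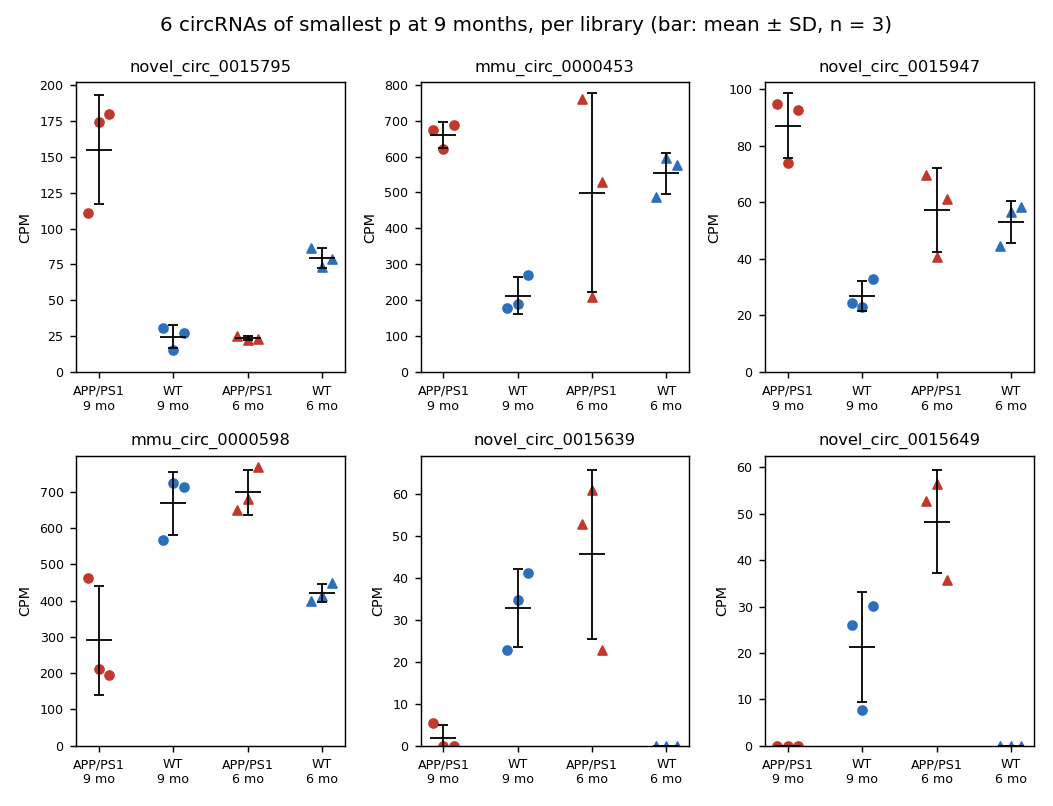
CPM of the 6 circRNAs of smallest p at 9 months in each library, for APP/PS1 (red) and wild type (blue) at 9 months (circles) and 6 months (triangles), with the mean and SD as bars (n = 3 libraries). For novel_circ_0015795 the 9-month APP/PS1 libraries lie at 111 to 179.8 CPM and the wild-type libraries at 15.4 to 30.9, while at 6 months the order of the genotypes is the other way round.

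The circRNA with the next smallest p was mmu_circ_0000453, one of the more abundant catalogue IDs. Its levels were 675, 620.0 and 687 CPM in APP/PS1 and 177, 188 and 271 in wild type. The groups did not overlap, and the fitted difference was 1.64 on the log2 scale (SE 0.30), but the edgeR adjusted p was 0.212. It was called by DESeq2, with the 9-month libraries alone, and without APP/PS1 2 of 6 months, and the adjusted p over all 21 other settings ran from 0.00132 to 0.762. At 6 months the levels were 759, 208 and 529.6 CPM in APP/PS1 and 488, 596 and 576 in wild type, so that APP/PS1 2 stood far below the other 5 libraries. The circRNA with the neighbouring ID, mmu_circ_0000452, had 401, 475 and 439.5 CPM in APP/PS1 and 193, 131 and 139.8 in wild type at 9 months. It too was not called (log2 1.48, SE 0.37, adjusted p = 0.519), except without APP/PS1 2 of 6 months, where its level was 131 CPM against 667 and 435 in the other APP/PS1 libraries of that age.

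The rest of the 10 smallest p-values belonged to circRNAs that did not pass the adjusted threshold of the edgeR test. For novel_circ_0015947 the levels were 94.8, 73.9 and 92.4 CPM in APP/PS1 and 24.4, 23.1 and 32.9 in wild type (log2 1.69, SE 0.32, adjusted p = 0.212). The groups lay far apart, whereas at 6 months they overlapped at 40.7 to 69.5 CPM in APP/PS1 and 44.6 to 58.1 in wild type. For mmu_circ_0000598 the levels were 463, 212 and 195 CPM in APP/PS1 and 567, 723 and 713 in wild type (log2 −1.20, SE 0.24, adjusted p = 0.268). APP/PS1 1 lay near the wild-type range, and without it the circRNA was called (log2 −1.71). At 6 months the order was the other way round, with 648 to 766 CPM in APP/PS1 and 399 to 448 in wild type, and the genotype effects differed between the ages (edgeR adjusted p = 0.0432). That difference was called in only 6 of 20 other settings, with adjusted p up to 0.127.

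The other 6 of these 10 were listed at or near 0 in a whole group. CircRNA novel_circ_0015639 had 2, 0 and 0 reads in APP/PS1 and 14, 9 and 15 in wild type (adjusted p = 0.468). At 0 in all 3 APP/PS1 libraries were novel_circ_0015649 with 16, 2 and 11 reads in wild type (adjusted p = 0.268), novel_circ_0010659 with 7, 8 and 7 (0.491) and novel_circ_0055074 with 12, 10 and 11 (0.491). The catalogue ID mmu_circ_0001509 was also at 0 in all 3 APP/PS1 libraries and had 185, 77 and 0 reads in wild type (adjusted p = 0.491), so that wild type 3 sided with APP/PS1. In the opposite direction novel_circ_0010838 had 6, 25 and 20 reads in APP/PS1 and 0 in each wild-type library (adjusted p = 0.517). At 6 months novel_circ_0015639 had 19, 27 and 9 reads in APP/PS1 and 0 in all wild-type libraries, and novel_circ_0015649 had 19, 25 and 14 reads in APP/PS1 and 0 in all wild-type libraries. In both, the genotype with reads was thus wild type at 9 months and APP/PS1 at 6 months. The others had reads in both genotypes at 6 months. In APP/PS1 and wild type these were 7, 5, 5 and 9, 2, 3 for novel_circ_0010659, and 25, 0, 17 and 29, 9, 14 for novel_circ_0010838. For mmu_circ_0001509 they were 90, 115, 107 and 0, 63, 72. For novel_circ_0055074 they were 3, 0, 11 and 27, 7, 15, on average lower in APP/PS1 as at 9 months.

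The 10 most abundant circRNAs of the 9-month libraries gave no call, and 8 of them had fitted log2 changes between −0.18 and 0.06. Their ranking was led by mmu_circ_0000057 with 14896 ± 953 CPM in APP/PS1 and 15710.0 ± 2185 in wild type (SD, n = 3 each, log2 −0.08, SE 0.11). Then followed novel_circ_0044209, mmu_circ_0001605, mmu_circ_0001829, mmu_circ_0001125, mmu_circ_0000349, mmu_circ_0000489, mmu_circ_0001589, mmu_circ_0000595 and mmu_circ_0000017, and 9 of the 10 are catalogue IDs. The last 6 of these lay between 3525 and 5413 CPM on average in APP/PS1 and between 3613 and 5893 in wild type.

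Among these abundant circRNAs the libraries differed more than the genotypes in a few cases. For mmu_circ_0001605 the levels were 6825, 7368 and 9509.8 CPM in APP/PS1 and 9164, 5733 and 10033 in wild type (log2 −0.07, SE 0.18). For mmu_circ_0001125 they were 5421, 5399 and 5419 CPM in APP/PS1 and 8352, 4757 and 4569.7 in wild type (log2 −0.12, SE 0.17), with wild type 1 alone far above the rest. For mmu_circ_0000489 they were 4498, 3906 and 4385 CPM in APP/PS1 and 2867, 4061 and 3912 in wild type (log2 0.24, SE 0.13, adjusted p = 1), with wild type 1 alone below. At 6 months mmu_circ_0000489 had 3139 to 3379 CPM in APP/PS1 and 3801 to 4532 in wild type (log2 −0.37, adjusted p = 0.808). Of the 10, mmu_circ_0000017 was the only one without overlap between the groups at 9 months, with 3593, 3719.9 and 3262 CPM in APP/PS1 and 4036, 3776 and 4139 in wild type (log2 −0.18, SE 0.11, adjusted p = 1).

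**Figure D3:**
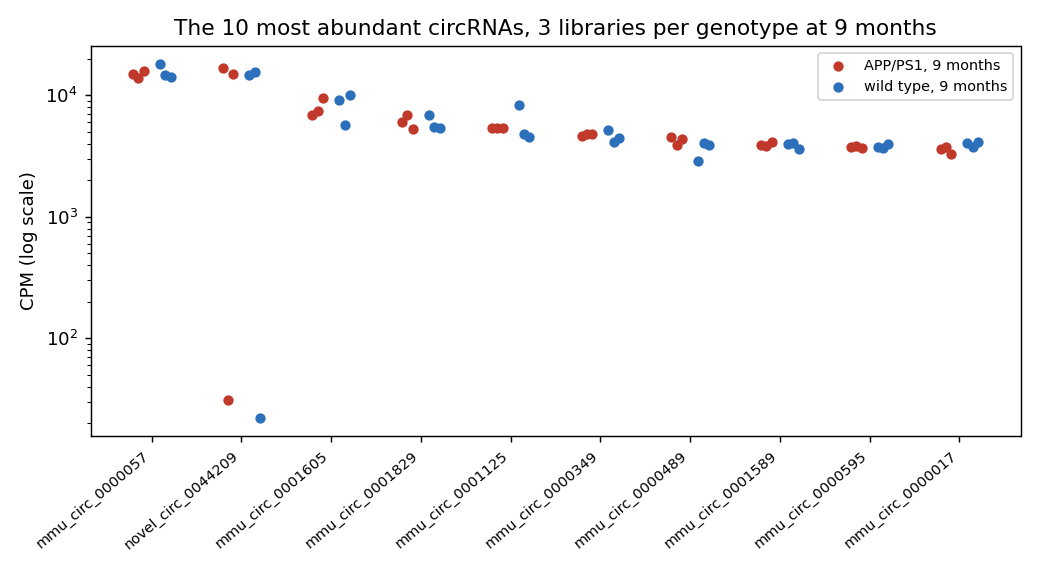
CPM on a log scale of the 10 circRNAs of highest mean CPM in the 3 APP/PS1 (red) and 3 wild-type (blue) libraries of 9 months. The points of both genotypes lie at similar heights for most of them, and for novel_circ_0044209 APP/PS1 2 at 31.0 CPM and wild type 3 at 21.9 CPM lie far under the other 4 libraries.

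The second most abundant circRNA, novel_circ_0044209, was nearly absent from single libraries of both genotypes. It had 6163, 13 and 5988 reads in APP/PS1 and 9061, 4015 and 8 in wild type at 9 months. At 6 months it had 6121, 7164 and 21 reads in APP/PS1 and 21, 4581 and 5270 in wild type. In each group 1 library was near 0 and the other 2 held at least 4015 reads, and the fitted genotype change at 9 months was 0.07 on the log2 scale with an SE of 1.61. A pair of circRNAs with nearby IDs were low in the same libraries. For novel_circ_0044168 the reads were 55, 14 and 66 in APP/PS1 and 73, 44 and 15 in wild type, and for novel_circ_0044169 they were 30, 0 and 19 in APP/PS1 and 41, 11 and 5 in wild type.

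Such circRNAs were searched for among the 735 with a mean of at least 100 reads over the 6 libraries, a search added after the values had been seen. In 10 of the 735 the lowest library was at most 5% of the highest in CPM. None of the 10 was low in all 3 libraries of one genotype and in no library of the other, and the edgeR adjusted p was 0.837 for mmu_circ_0000723 and 1 for the other 9. The catalogue ID mmu_circ_0000723 had 0 reads in all 3 APP/PS1 libraries and 5657, 0 and 0 in wild type at 9 months, so a single library held all its reads. At 6 months it had 3939, 4871 and 4501 reads in APP/PS1 and 4447, 0 and 0 in wild type. CircRNA novel_circ_0007040 had 0, 707 and 0 reads in APP/PS1 and 1644, 614 and 551 in wild type at 9 months, and 0 in all 6 libraries of 6 months.

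Several of these circRNAs shared their low libraries. Both novel_circ_0030196 and novel_circ_0030212 were near 0 in APP/PS1 1, wild type 2 and wild type 3 of 9 months. Of these, novel_circ_0030196 had 2, 261 and 263 reads in APP/PS1 and 1085, 0 and 8 in wild type, and novel_circ_0030212 had 9, 233 and 191 in APP/PS1 and 963, 4 and 6 in wild type. CircRNA novel_circ_0043144 had 16, 461 and 29 reads in APP/PS1 and 15, 9 and 522 in wild type, so it was high in the 2 libraries of 9 months where novel_circ_0044209 was near 0. At 6 months it was high in APP/PS1 3 with 417 reads but not in wild type 1 with 35, while novel_circ_0044209 had 21 reads in both of these libraries. The remaining 4 were each at 0 in 1 library of 9 months. These were novel_circ_0017717 and mmu_circ_0000334 in wild type 3, novel_circ_0040114 in wild type 2 and novel_circ_0010579 in APP/PS1 3. For novel_circ_0010579 the reads were 106, 128 and 0 in APP/PS1 and 240, 62 and 120 in wild type, and novel_circ_0010578, novel_circ_0010580 and novel_circ_0010615 were also at 0 in APP/PS1 3 alone. At 6 months novel_circ_0010579 had 75, 245 and 98 reads in APP/PS1 and 0 in all wild-type libraries, and novel_circ_0010580 had 30, 113 and 30 in APP/PS1 and 0 in all wild-type libraries.

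**Figure D4:**
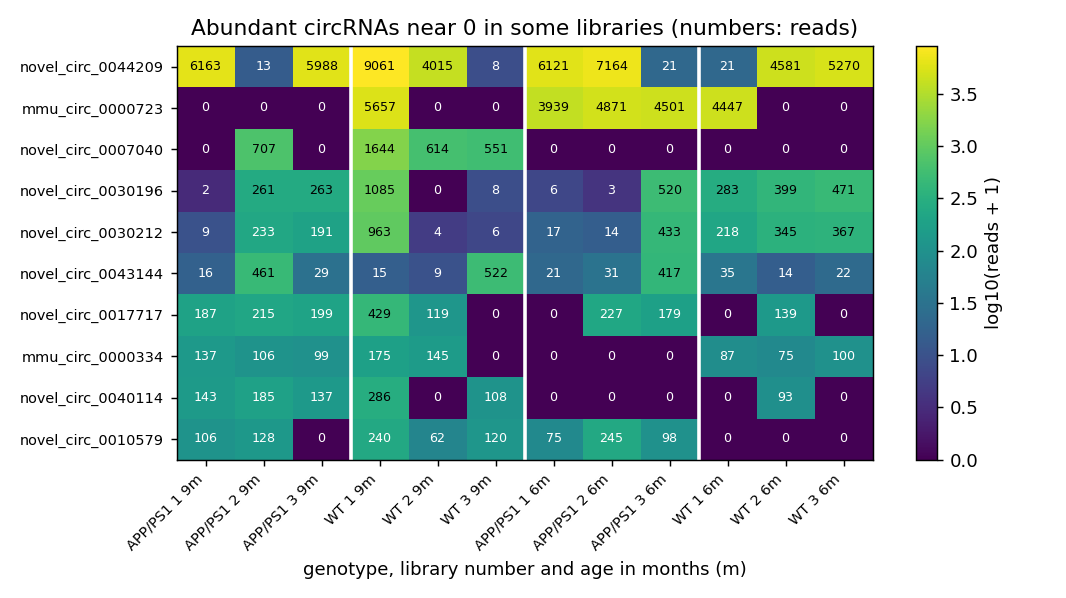
Reads per library (numbers in the cells, colour on a log10 scale of reads + 1) of the 10 circRNAs with a mean of at least 100 reads at 9 months whose lowest library was at most 5% of the highest. The libraries near 0 belong to both genotypes, and mmu_circ_0000723 has reads in wild type 1 alone at 9 months.

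Counting all circRNAs, each library of 9 months had some listed at 0 although both other libraries of its group held at least 30 reads. There were 5, 12 and 8 in the APP/PS1 libraries and 6, 8 and 8 in the wild-type libraries. The deepest library, wild type 1, and the shallowest, wild type 2, thus had similar numbers. The most abundant of them that is not named above was novel_circ_0051327, at 0 in APP/PS1 3 with 114 and 144 reads in the other APP/PS1 libraries.

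Outside the overlap of the groups lay 1539 of the 14872 tested circRNAs at 9 months, or 10.3%. Of these, 835 (5.61% of those tested) were higher in all 3 APP/PS1 libraries and 704 (4.73%) were lower. Without a genotype effect, 3 against 3 libraries separate with a probability of 0.1, so a lack of overlap alone says little. At 6 months the share was 13.0%. Among the 2406 circRNAs with a mean of at least 30 reads, the share at 9 months was 9.93%, close to that of all tested circRNAs. These were 239 circRNAs, 148 higher and 91 lower. The largest changes of these 239 are given next as a description, since they were chosen for their size. On the higher side, after novel_circ_0015795, mmu_circ_0000453 and mmu_circ_0000452, came novel_circ_0034880 with 176, 167 and 145 CPM in APP/PS1 and 84.5, 111.5 and 30.2 in wild type. Next were mmu_circ_0001740 with 116.5, 124 and 112 CPM in APP/PS1 and 35.7, 65.4 and 74.0 in wild type, and novel_circ_0006801 with 97.5, 95.4 and 117 in APP/PS1 and 22.7, 73.1 and 68.5 in wild type. In these 3 the APP/PS1 libraries lay close together and the wild-type libraries were spread out.

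On the lower side novel_circ_0019826 had 0, 71.5 and 0 CPM in APP/PS1 and 158, 108 and 76.8 in wild type. With all libraries it was not called (edgeR adjusted p = 0.923). In 1 of 21 other settings, without APP/PS1 2 of 9 months, it was called (edgeR adjusted p = 0.00479). That library alone held its APP/PS1 reads at this age. For mmu_circ_0000598 the values stand above. For novel_circ_0041268 the levels were 116.5, 26.2 and 117 CPM in APP/PS1 and 156, 242 and 192 in wild type, and for novel_circ_0041264 they were 46.1, 33.4 and 67.4 in APP/PS1 and 95.8, 108 and 104 in wild type. Both were lowest in APP/PS1 2. For novel_circ_0057885 the levels were 86.7, 153 and 24.97 CPM in APP/PS1 and 156, 181 and 186 in wild type. For novel_circ_0014880 they were 48.8, 52.5 and 67.4 CPM in APP/PS1 and 101, 88.4 and 121 in wild type. The fitted log2 changes of the 12 circRNAs ranged from −2.22 to −0.88 on the lower side and from 1.00 to 2.57 on the higher side. Only novel_circ_0015795 among them was called by edgeR with all libraries. Single libraries carried several of them. Without APP/PS1 2, novel_circ_0019826 was at 0 in both remaining APP/PS1 libraries, so that no fold is given, and with limma-voom its log2 change was −4.52. The change of novel_circ_0057885 was −1.65 without APP/PS1 2 and −0.53 without APP/PS1 3, that of novel_circ_0041268 was −0.73 without APP/PS1 2, and that of novel_circ_0006801 was 0.55 without wild type 1.

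CircRNAs listed in all 3 libraries of one genotype and at 0 in all 3 of the other were few and low. Of the 15690 listed circRNAs, 138 had such reads in APP/PS1 alone. Their mean over the 3 libraries was 2 to 17 reads with a median of 3. With reads in wild type alone there were 146, with a mean of 2 to 11 reads and a median of 3.33. None of them was a catalogue ID, and 54 and 57 of them passed the filter on low counts. Only 2 of the 138 and 1 of the 146 had a mean of at least 10 reads. At 6 months, 80 of the 138 and 92 of the 146 had reads in both genotypes, the same all-or-none pattern returned in 2 and 1, and the opposite pattern, with reads in the other genotype alone, was found in 2 and 3.

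The most abundant of them were named by rank. In APP/PS1 alone, after novel_circ_0010838, came novel_circ_0037690 with 7, 21 and 6 reads, novel_circ_0038726 with 10, 7 and 8 and novel_circ_0054077 with 6, 4 and 13. In wild type alone, after novel_circ_0055074 and novel_circ_0015649, came novel_circ_0018903 with 7, 8 and 10 reads and novel_circ_0027961 with 9, 5 and 11. At 6 months novel_circ_0038726 had 8, 0 and 7 reads in APP/PS1 and 0 in all 3 wild-type libraries, and novel_circ_0018903 had 0, 0 and 2 in APP/PS1 and 6, 5 and 7 in wild type. Both thus had more reads in the same genotype at both ages. By contrast novel_circ_0037690 had 4, 0 and 2 reads in APP/PS1 and 10, 5 and 0 in wild type at 6 months, and novel_circ_0054077 had 5, 3 and 9 in APP/PS1 and 5, 0 and 8 in wild type. CircRNA novel_circ_0027961 had reads in 1 library of each genotype at 6 months, 14 in APP/PS1 2 and 11 in wild type 3. Neither novel_circ_0038726 nor novel_circ_0018903 was called at 9 months (edgeR adjusted p = 0.757 and 0.517).

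The 6-month libraries, none of which enters the 9-month groups, gave the same circRNAs a second comparison of the genotypes, in which 7 were called (0.0471% of those tested). Of the 661 circRNAs with an unadjusted p under 0.05 at 9 months, 290 had a change of the same sign at 6 months, or 43.9%, against 48.0% of all tested circRNAs. An unadjusted p under 0.05 at both ages was found for 17 in the same direction and 46 in opposite directions. Of all tested circRNAs, 788 (5.30%) had an unadjusted p under 0.05 at 6 months. Both comparisons take their spread from the same model of 12 libraries, so small p-values at both ages are not independent. Pearson's r between the log2 changes at 9 and at 6 months was −0.02 across the 14872 circRNAs and Spearman's rho was −0.04, given as descriptions since circRNAs share libraries. A differing effect of genotype at the 2 ages was called for 6 circRNAs, or 0.0403% of those tested, which besides the 4 described above were novel_circ_0027638 and novel_circ_0045011. In 20 other settings it was called in 8 for novel_circ_0027638 and in 17 for novel_circ_0045011. That count ran from 4 to 11 when single libraries were left out, being 11 without wild type 3 of 9 months.

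Of these 2, novel_circ_0027638 had 620.4, 603 and 684 CPM in APP/PS1 and 401, 565 and 339.9 in wild type at 9 months, without overlap but not called (log2 0.55, SE 0.18, adjusted p = 0.866). At 6 months it had 323, 373 and 323 CPM in APP/PS1 and 669, 626 and 619 in wild type. For novel_circ_0045011 the groups overlapped at 9 months, with 144, 126 and 217 CPM in APP/PS1 and 95.8, 238 and 255 in wild type (log2 −0.24, SE 0.32, adjusted p = 1). At 6 months the wild-type libraries lay at 23.6, 19.99 and 20.3 CPM beneath the 153 to 278 CPM of the APP/PS1 libraries of that age.

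**Figure D5:**
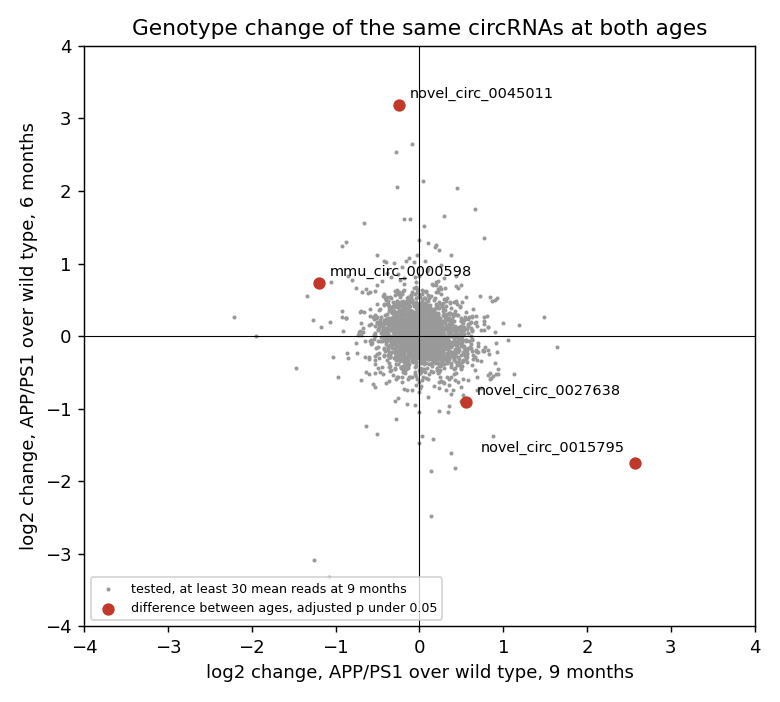
Log2 change of APP/PS1 over wild type at 9 months (horizontal) and 6 months (vertical) for the 2406 tested circRNAs with a mean of at least 30 reads at 9 months, of which 9 lie outside the axes. Red points are circRNAs whose genotype effect differed between the ages at an adjusted p under 0.05, and novel_circ_0015795 lies far to the lower right.

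CircRNAs near novel_circ_0015795 in ID number were looked at in a scan that was added after the values had been seen. The tested novel_circ IDs were split into 120 windows of 500 ID numbers, and the median window had 5 circRNAs with an unadjusted p under 0.05 (4.13%). The window that holds novel_circ_0015795 had the most at 9 months, 17 of 108 (15.7%), 8 higher and 9 lower in APP/PS1. At 6 months the window of ID numbers 2500 to 2999 had the most, 19 of 118 (16.1%), against 16 (14.8%) here. For the difference between the ages these windows had 17.8% and 19.4%. The 17 include novel_circ_0015795 itself and novel_circ_0015947, novel_circ_0015639 and novel_circ_0015649, named above for their small p, so the count partly repeats those results. Of these 17, 12 had the opposite sign at 6 months, and 8 had an unadjusted p under 0.05 at both ages, each of the 8 with opposite signs. Among all 661 circRNAs with an unadjusted p under 0.05 at 9 months, 43.9% had the same sign at 6 months. With an unadjusted p under 0.05 at both ages, 46 of the 661 had opposite signs and 17 the same sign. For novel_circ_0015602 the reads were 40, 47 and 34 in APP/PS1 and 23, 14 and 15 in wild type at 9 months. For novel_circ_0015625 they were 5, 5 and 6 in APP/PS1 and 14, 13 and 17 in wild type at 9 months, and 18, 34 and 26 in APP/PS1 and 6, 7 and 12 in wild type at 6 months. Neither was called (edgeR adjusted p = 0.517 and 0.837 at 9 months). No source used here says what the order of the ID numbers stands for.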

How the data were processed

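CircRNA libraries were made from brain RNA of the 4 groups, 3 libraries each, with Trizol extraction and an Illumina TruSeq RNA kit per the labels' protocols. The submitters' processing notes name Bowtie 0.12.2 and mm8 without their roles. How circRNAs were enriched, called and annotated is not given in the sources used here. Read counts were deposited for circRNAs, with columns named TPM by the authors, which equal the count per 1000000 reads of the library (CPM) with no length term. FPKM of the long RNA libraries were deposited by the authors per transcript and were summed per gene for the tissue check only.

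Tests used edgeR 4.0.16 (TMM, glmQLFit, glmQLFTest) in R 4.3.3 on the deposited counts of 12 libraries, two-sided, with Benjamini-Hochberg adjustment. The filter asked for 2 reads or more in 3 or more libraries and a total of 20 or more. SE was taken as the size of the log2 change over √F. DESeq2 1.42.0, limma 3.58.1 and other settings were alternatives. The tests were also run on simulated counts with known changes, and the outcome is not given here. Those counts were not made to hold abundant circRNAs near 0 in single libraries. The p-values of library measures are exact permutation tests. CircRNAs were named by p (10), abundance (10), size of non-overlapping changes (6 per direction) and all-or-none pattern (4 per direction), besides called ones. Members and lists were chosen with earlier results of these data known. No pair of replicates agreed within sampling noise (chi-square per degree of freedom at least 1.955). Counting error does not cover duplicates from amplification.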

Additional observations from a re-analysis of the deposited data

Results flagged for a closer look

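The following 6 results were singled out because the effect of genotype differed between 9 and 6 months by the test of the difference itself (edgeR, adjusted over 14872 circRNAs). The adjusted p of that difference was 0.000121 for novel_circ_0015795, 0.00271 for novel_circ_0015639 and 0.00271 for novel_circ_0015649. It was 0.0112 for novel_circ_0045011, 0.034 for novel_circ_0027638 and 0.0432 for mmu_circ_0000598. In 20 other settings the difference was called in 20 for novel_circ_0015795, 17 for novel_circ_0045011, 8 for novel_circ_0027638 and 6 for mmu_circ_0000598, with adjusted p up to 0.00189, 0.136, 0.112 and 0.127. For novel_circ_0015639 and novel_circ_0015649, which failed the stricter filter on low counts, it was called in 18 of 19 settings each.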

How the results depend on the processing

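The call of novel_circ_0015795 held in all 21 other settings (log2 2.39 to 2.79). The number of circRNAs called at 9 months was 4 with DESeq2 (3 higher, 1 lower) and 2 with the 9-month libraries alone (2 higher), and leaving out single libraries gave 1 to 5 (1 to 4 higher, 0 to 4 lower). Limma-voom called 1 as well, with 1333 at an unadjusted p under 0.05. For the difference between the ages, DESeq2 called 17 (9 higher, 8 lower) and the stricter filter, which tested 3298 circRNAs, 1 (1 higher, 0 lower). Limma on log2(TPM + 1) and the replicate block gave 1 higher call each, and leaving out single libraries gave 4 to 11 (1 to 6 higher, 2 to 7 lower). The cause was not tested.

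Same-numbered APP/PS1 and wild-type libraries showed no shared deviation. Their correlations of deviations were −0.053, −0.040 and −0.016 at 9 months and 0.015, 0.016 and −0.014 at 6 months. Values near 0 cannot tell whether the libraries were paired in the experiment. With the number as a replicate block within age, 1 circRNA was called at 9 months (441 at an unadjusted p under 0.05) and 5 for the difference between the ages, and novel_circ_0015795 had a log2 change of 2.55 (adjusted p = 0.0272).

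With all 6 libraries of 9 months the difference in circRNA number at equal depth (APP/PS1 minus wild type) was 462. It was 187.9 when circRNAs were counted from 2 reads. Leaving out single libraries moved the former between 11.7 and 768. The difference in the share of the top 10 then moved between −0.91 and 0.21 percentage points, and that in the catalogue share between −0.03 and 0.22. Among the named circRNAs, uncalled changes near 0 turned sign. With limma-voom these were novel_circ_0044209 (−0.21) and mmu_circ_0001829 (−0.025), and with the stricter filter mmu_circ_0001589 (−0.00056). Leaving out libraries gave log2 −0.15 to 0.043 for mmu_circ_0000057, −0.51 to 0.65 for novel_circ_0044209, −0.28 to 0.084 for mmu_circ_0001605, −0.078 to 0.15 for mmu_circ_0001829, −0.28 to 0.22 for mmu_circ_0001125, −0.015 to 0.16 for mmu_circ_0000349, −0.024 to 0.048 for mmu_circ_0001589 and −0.052 to 0.010 for mmu_circ_0000595. Fitted changes of circRNAs at 0 in a whole group of 9 months were not compared between settings. Depth limits low circRNAs most: under 5 reads the median SE was 1.20.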
